A study of Mus musculus with 48 samples.

Results

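The genes described here are 4 pyruvate dehydrogenase kinases, Pdk1, Pdk2, Pdk3 and Pdk4, and 2 uncoupling proteins, Ucp2 and Ucp3. They were chosen by name among the 37074 gene names of a mouse microarray and are read by 12 of its 56605 probes. A filter on dim probes kept 10 of the 12, which measure 5 of the 6 genes, and neither probe of Pdk3 passed. Liver RNA came from male mice whose alleles of Pik3ca, the gene for p110α, are floxed in every group. In p110αhep-/- mice a Cre transgene under the albumin promoter deletes p110α in hepatocytes, and p110αhep+/+ mice are floxed littermates with no Cre. Whether the other liver cells keep p110α was not examined here. From 12 weeks of age each genotype received a control diet (CTRL) or a high-fat diet (HFD, 60% of calories from fat) for 12 weeks. At the end the mice were either fed or fasted for 24 h, and all were killed at ZT16, that is 16 h after lights on. These 8 groups held 6 mice each, with 1 array per mouse.

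Pyruvate dehydrogenase kinases phosphorylate the mitochondrial pyruvate dehydrogenase complex and so switch it off, and pyruvate then no longer enters the citric acid cycle as acetyl-CoA. In liver this spares pyruvate for gluconeogenesis when fatty acids are the main fuel, and Pdk4 is known as a gene that fasting, fatty acids, PPARα and FOXO1 raise and insulin lowers. Ucp2 and Ucp3 encode carriers of the inner mitochondrial membrane, related to the brown fat protein Ucp1. Ucp2 is made in many cell types, macrophages included, and Ucp3 is best known from skeletal muscle and brown fat.

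All 48 arrays were usable for these genes. Between 52.26% and 59.29% of spots were well above background on an array, no spot was saturated, and each of the 10 probes kept was well above background on 48 of 48 arrays. The summed log2 level of 8 hepatocyte markers lay between 20.81 and 21.05 on every array, so the defining genes of liver were present in every group. Pik3ca itself gave no check of the deletion, since the place of its probe relative to the floxed exons is not known here. Its signal was higher in p110αhep-/- than in p110αhep+/+ mice by 0.39 fed on CTRL, 0.58 fed on HFD and 0.25 fasted on HFD (limma, adjusted p = 0.000419, 2.99e-07 and 0.0172), and by 0.08 fasted on CTRL (not called, 0.531). All values below are normalised log2 signals of the brightest probe of a gene, and a difference of 1 on this scale is 2-fold. A call is an adjusted p of at most 0.05 over all 30793 probes kept, and the spread that the test uses is that between mice.

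Pdk4 was the member with the widest range. Its single probe lies on chromosome 6, at chr6:5433441-5433500 on the minus strand (mm9). Raw signals ran from 188 to 10132, and the spread left within groups (residual SD 0.77) was larger than that of 99.6% of 20459 genes. In fed p110αhep+/+ mice on CTRL the lowest, median and highest log2 signals were 7.77, 8.30 and 9.57. After the fast they were 8.87, 10.17 and 10.53. Fed p110αhep-/- mice on CTRL gave 7.47, 8.17 and 9.10, and after the fast 10.54, 12.57 and 13.18. The fed groups of the 2 genotypes overlapped, whereas all 6 fasted p110αhep-/- mice stood above all 6 fasted p110αhep+/+ mice, the closest pair at 10.54 and 10.53. The fasted p110αhep-/- group was itself split, with 4 mice between 12.38 and 13.18 and replicates 5 and 6 at 10.56 and 10.54.

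**Figure D1:**
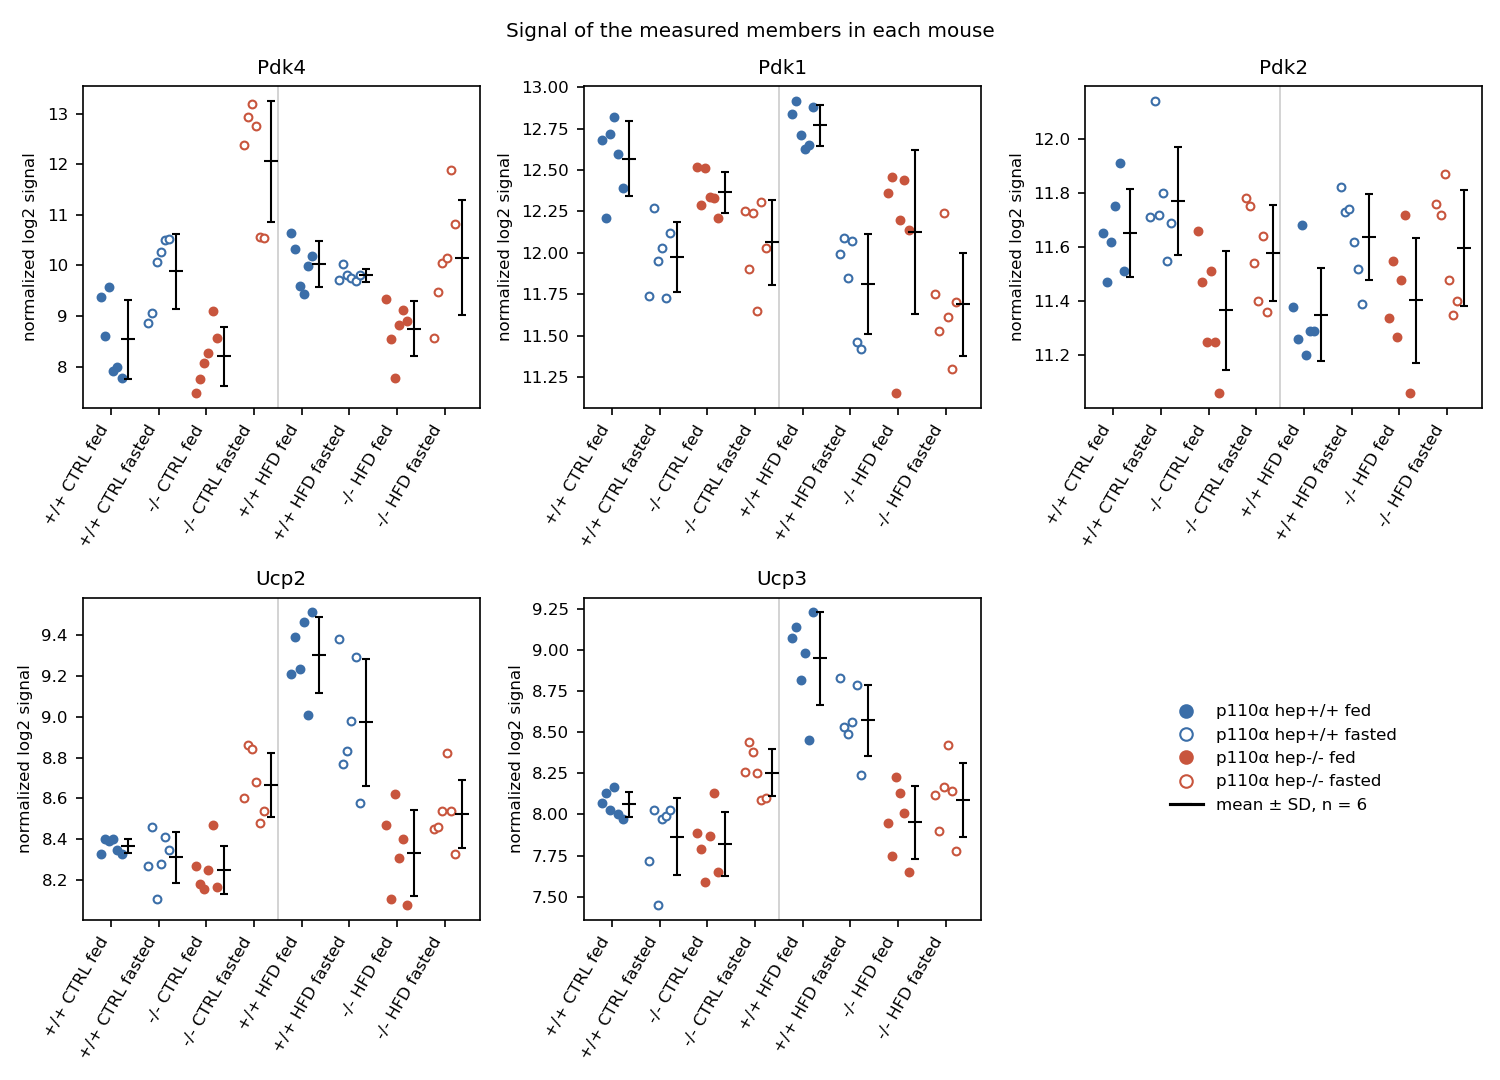
Normalised log2 signal of Pdk1, Pdk2, Pdk4, Ucp2 and Ucp3, 1 panel each, in the 8 groups of genotype, diet and nutritional state; points are mice and bars the mean ± SD of 6. Pdk4 is highest in fasted p110αhep-/- mice on CTRL (mean 12.06 ± 1.20), and Ucp2 and Ucp3 are highest in fed p110αhep+/+ mice on HFD (means 9.30 ± 0.19 and 8.95 ± 0.28).

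On CTRL, fasting raised Pdk4 by 1.33 (SE 0.38, 2.52-fold, limma adjusted p = 0.00659) in p110αhep+/+ mice and by 4.13 (SE 0.39, 17.5-fold, adjusted p = 2.11e-11) in p110αhep-/- mice. The fed and fasted groups overlapped in the first genotype and not in the second. Taken slide by slide, both rises were seen on 6 of 6 slides (0.27 to 2.27 and 1.46 to 5.41), and within the 2 washing batches of the arrays that of p110αhep-/- mice was 4.21 and 4.15. The difference between the 2 rises was itself called: 2.80 (SE 0.55, adjusted p = 0.00235). After a fast on CTRL, Pdk4 was 2.39 higher in p110αhep-/- mice (SE 0.38, 5.24-fold, adjusted p = 6.64e-06), with 2.52 and 2.30 within the batches, while in fed mice on CTRL the genotype difference was -0.41 (adjusted p = 0.511).

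On HFD the pattern of Pdk4 was another one. Fed p110αhep+/+ mice on HFD lay at 9.43, 10.09 and 10.64 (lowest, median and highest) and fasted ones at 9.69, 9.78 and 10.03. Fed p110αhep-/- mice on HFD lay at 7.78, 8.87 and 9.33 and fasted ones at 8.57, 10.09 and 11.88. In the fed state no p110αhep-/- mouse reached the lowest p110αhep+/+ mouse, and in the fasted state the narrow p110αhep+/+ group lay inside the range of the p110αhep-/- group. HFD raised Pdk4 in fed p110αhep+/+ mice by 1.36 (SE 0.38, 2.57-fold, limma adjusted p = 0.00698). Within the batches this rise was 1.94, called, and 0.92, not called (adjusted p = 0.02 and 0.351). Fed p110αhep-/- mice differed by 0.62 between the diets (adjusted p = 0.389), a difference between genotypes of -0.74 that did not pass (adjusted p = 0.532). Fasting on HFD moved Pdk4 by -0.17 in p110αhep+/+ mice (95% interval -0.92 to 0.58, adjusted p = 0.788) and raised it by 1.25 in p110αhep-/- mice (SE 0.43, 2.38-fold, adjusted p = 0.0258). These 2 fasting effects differed by 1.42, which was not called (adjusted p = 0.174).

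In fasted p110αhep-/- mice Pdk4 fell by 2.26 from CTRL to HFD (SE 0.41, 4.77-fold, limma adjusted p = 0.000173), with overlapping groups, and in fasted p110αhep+/+ mice the diets differed by -0.14 (adjusted p = 0.848). The fasting effect of p110αhep-/- mice on HFD minus that on CTRL was -2.88 (SE 0.58, adjusted p = 0.00095). The same term was -1.5 in p110αhep+/+ mice and was not called (adjusted p = 0.135). Fed on HFD, Pdk4 was lower in p110αhep-/- than in p110αhep+/+ mice (-1.15, SE 0.40, 2.22-fold, adjusted p = 0.0231), and fasted on HFD the difference was 0.27 (adjusted p = 0.643). The diet effect in fasted mice differed between genotypes by -2.12 (SE 0.56, adjusted p = 0.0217). By slide, the diet fall in fasted p110αhep-/- mice (-4.61 to 1.34), the term of -2.88 (-5.39 to 0.58) and that of -2.12 (-5.37 to 1.02) kept their sign on 4 of 6 slides each. Erythroid markers moved in these mice too. Of 4 measured, 3 were higher for HFD in fasted p110αhep-/- mice (median 0.80, with 10.8% of all genes called) and 3 lower for fasting in p110αhep-/- mice on CTRL (median -0.73, with 35.4%). Their summed level was 17.08 to 18.00 fed and 16.56 to 17.47 fasted on CTRL, and 16.71 to 18.43 fasted on HFD. Their part in the Pdk4 results was not tested.

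Single mice decided 3 of these Pdk4 calls. The fasting rise of p110αhep-/- mice on HFD was lost without fed replicate 2 (1.17, limma adjusted p = 0.0711), fasted replicate 5 (0.88, 0.126) or fasted replicate 6 (1.05, 0.0809). The genotype difference fed on HFD was lost without p110αhep+/+ replicate 6 (-1.06, 0.0583) or p110αhep-/- replicate 2 (-1.07, 0.0631). The genotype by diet term of fasted mice was lost without p110αhep-/- CTRL replicate 3 (-1.80, 0.0634), p110αhep-/- HFD replicate 1 (-1.75, 0.0601) or replicate 2 (-1.86, 0.0638).

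In order of mean level, Pdk4 was highest in fasted p110αhep-/- mice on CTRL. There followed fasted p110αhep-/- mice on HFD, then fed p110αhep+/+ mice on HFD, fasted p110αhep+/+ mice on CTRL and fasted p110αhep+/+ mice on HFD, neighbours that overlapped throughout. A step of 1.05 with no overlap led to fed p110αhep-/- mice on HFD, and below them the fed mice on CTRL of both genotypes overlapped again.

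The upstream sequence of Pdk4 is shown because this member moved most. It is the 250 bases before the start site, from RefSeq (GRCm38.p6, chr6:5496279-5496528, minus strand, written 5′ to 3′).
Pdk4: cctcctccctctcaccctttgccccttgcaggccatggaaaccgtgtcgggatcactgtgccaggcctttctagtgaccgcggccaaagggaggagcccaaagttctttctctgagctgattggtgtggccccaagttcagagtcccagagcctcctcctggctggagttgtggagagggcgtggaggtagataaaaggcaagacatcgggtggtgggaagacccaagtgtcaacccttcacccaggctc
4 short motifs were searched on both strands of these windows: AGGTCA (the core hexamer of nuclear receptor sites, which is not a whole site), GTAAACA (forkhead), CACGTG (E-box) and GGGCGG (Sp1). No motif is contained in another, and 14%, 3.17%, 6.02% and 32.7% of 32851 RefSeq promoters hold them. The Pdk4 window holds none of the 4, which says only that these letters are not in it.

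Pdk1 fell on fasting wherever a change was called. That was opposite to Pdk4 in p110αhep+/+ mice on CTRL and p110αhep-/- mice on HFD, the settings where both were called. Pdk1, which hypoxia and HIF-1 are known to raise, is read by 5 probes, the brightest at chr2:71739926-71739985 on the plus strand (mm9). In p110αhep+/+ mice on CTRL the lowest, median and highest values were 12.21, 12.64 and 12.82 fed and 11.73, 11.99 and 12.27 fasted. On HFD they were 12.63, 12.77 and 12.92 fed and 11.42, 11.92 and 12.09 fasted. Fasted mice were lower on both diets, with overlap on CTRL and none on HFD. In p110αhep-/- mice the values were 12.21, 12.33 and 12.52 fed and 11.65, 12.13 and 12.31 fasted on CTRL. On HFD they were 11.15, 12.28 and 12.46 fed and 11.30, 11.66 and 12.24 fasted. These groups overlapped on both diets.

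Fasting lowered Pdk1 in p110αhep+/+ mice, where it fell by 0.63 (SE 0.13, 1.55-fold, limma adjusted p = 0.00022) on CTRL and fell by 0.90 (SE 0.13, 1.87-fold, adjusted p = 5.27e-07) on HFD. With p110α deleted the difference was -0.33 on CTRL, just short of a call (adjusted p = 0.052), and it was called in 10 of the 48 fits that left out 1 mouse, among them that without fed p110αhep-/- HFD replicate 3 (adjusted p = 0.0322). On HFD Pdk1 fell by 0.56 in p110αhep-/- mice (SE 0.15, 1.48-fold, adjusted p = 0.00341). The fall was not shown to differ between genotypes: the genotype by fasting term was not called on either diet. Fed on HFD, Pdk1 was lower in p110αhep-/- mice (-0.51, SE 0.14, 1.43-fold, adjusted p = 0.00327), with no overlap, and -0.43 without the low replicate 3 (adjusted p = 0.00823). Within the batches it was -0.42 and -0.64, neither called (adjusted p = 0.0647 and 0.0731), and the fall on fasting in p110αhep-/- mice on HFD was -0.86 and -0.16. No HFD effect on Pdk1 was called in the 4 settings (differences 0.17, -0.10, -0.13 and -0.36).

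Of the 4 other probes of Pdk1, 3 followed on fasting and 1 did not. A second probe in the same 3′ stretch (chr2:71739688-71739747) correlated with the brightest at r = 0.96 over the 48 arrays and fell on fasting in all 4 settings, with -0.58 and -0.70 in p110αhep+/+ mice and -0.36 and -0.53 in p110αhep-/- mice (limma adjusted p = 0.00086, 6.21e-05, 0.0421 and 0.00749). A probe whose bases span 295 genomic bases (chr2:71721635-71721929) also fell in all 4, with -0.65 and -0.62, then -0.44 and -0.43 (adjusted p = 9.82e-06, 1.29e-05, 0.00158 and 0.00705). A probe for the separate transcript ENSMUST00000148249 (chr2:71722122-71722181) gave -0.87 and -0.76 in the first and -0.83 and -0.36 in the second genotype, the last of these not called (adjusted p = 0.0741). The probe nearest the 5′ end (chr2:71713523-71713582) gave -0.01, -0.02, -0.06 and 0.07, none called. For the genotype fed on HFD, the second 3′ probe gave -0.36 (called, adjusted p = 0.0432), and the 3 others gave -0.28, -0.28 and 0.08, none called (adjusted p = 0.058, 0.125 and 0.539).

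**Figure D2:**
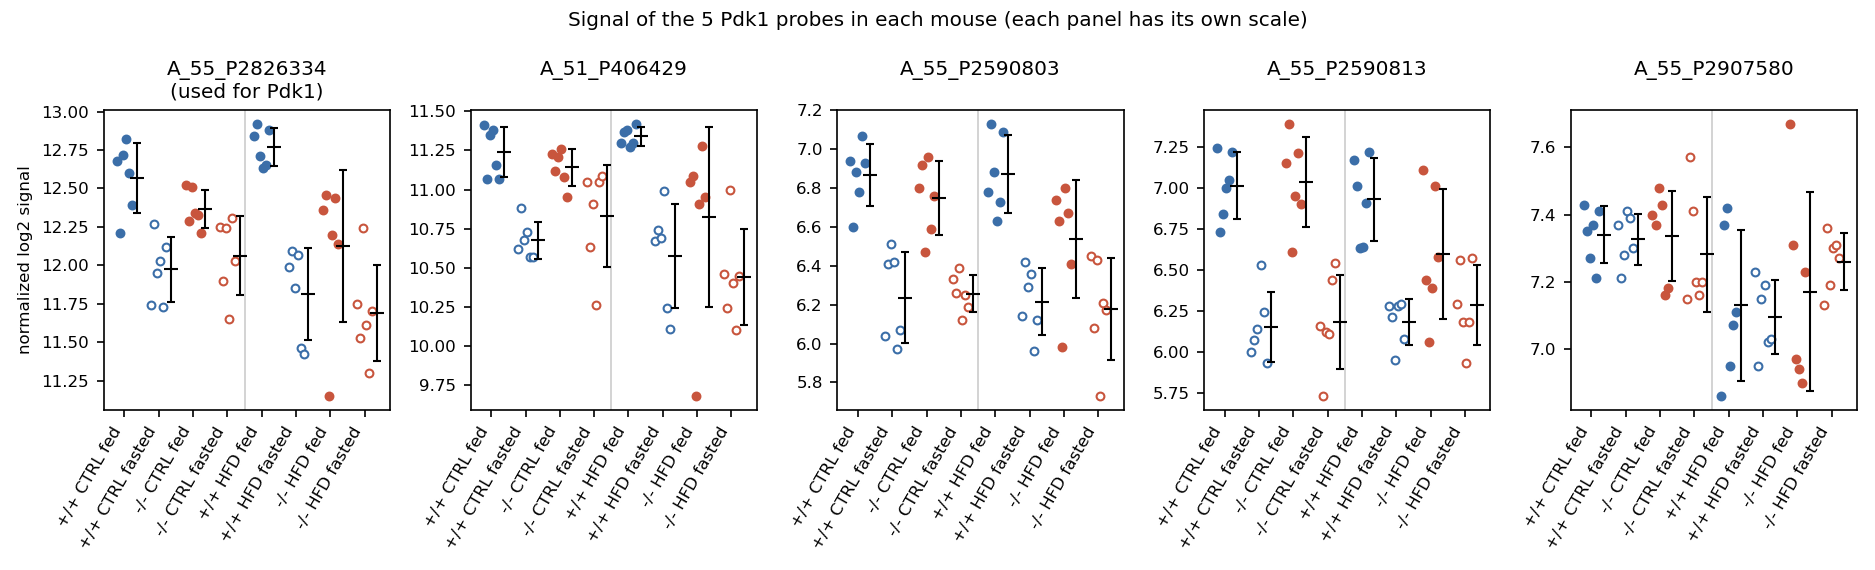
Normalised log2 signal of the 5 Pdk1 probes, 1 panel each with its own scale, in the 8 groups of genotype, diet and nutritional state. Points are mice and bars the mean ± SD of 6. The brightest probe has lower means fasted than fed in both genotypes on both diets (11.97 against 12.57 in p110αhep+/+ mice on CTRL). The probe nearest the 5′ end has means of 7.09 to 7.34.

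Pdk2, the kinase regarded as the most widely expressed of the family, varied least among the kinases measured. Its probe (chr11:94887669-94887728, minus strand, mm9) gave 11.47, 11.64 and 11.91 in fed p110αhep+/+ mice on CTRL (lowest, median and highest) and 11.20, 11.29 and 11.68 in those on HFD. Fasted p110αhep+/+ mice on HFD gave 11.39, 11.68 and 11.82, and fed p110αhep-/- mice on CTRL 11.06, 11.36 and 11.66. Every pair of these groups overlapped. Pdk2 fell by 0.34 from CTRL to HFD in fed p110αhep+/+ mice (limma adjusted p = 0.0113) and rose by 0.33 on fasting in p110αhep+/+ mice on HFD (SE 0.10, 1.26-fold, adjusted p = 0.00949). It was lower in fed p110αhep-/- mice on CTRL (-0.31, adjusted p = 0.0283), a call that was lost without any 1 of 6 mice: replicates 1, 4 and 5 of p110αhep+/+ and 3, 5 and 6 of p110αhep-/- (-0.31 to -0.25, adjusted p = 0.053 to 0.112). No interaction term was called for Pdk2. Pdk3 was not measured: its probes on chromosome X were well above background on 14 and 2 of 48 arrays, with raw signals of 34 to 61 for the first.

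Ucp2 and Ucp3 rose on HFD in p110αhep+/+ mice, and no such rise was called in p110αhep-/- mice. The brighter Ucp2 probe lies at chr7:107647809-107647868 and the Ucp3 probe at chr7:107630399-107630458, both on the plus strand (mm9), so that their starts are 17410 bases apart. Since both genes read much alike below, the 60 bases of each probe are printed as the array design gives them, 5′ to 3′.
Ucp2: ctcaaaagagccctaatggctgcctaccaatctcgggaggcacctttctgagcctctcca
Ucp3: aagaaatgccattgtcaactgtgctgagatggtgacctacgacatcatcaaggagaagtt
The longest run of bases that they share is 5 on the same strand and 6 on opposite strands.

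In fed p110αhep+/+ mice the lowest, median and highest Ucp2 values were 8.33, 8.37 and 8.40 on CTRL and 9.01, 9.31 and 9.51 on HFD. In fasted p110αhep+/+ mice they were 8.11, 8.31 and 8.46 on CTRL and 8.58, 8.90 and 9.38 on HFD. All mice on HFD stood above all mice on CTRL in both states. Fed p110αhep-/- mice gave 8.16, 8.22 and 8.47 on CTRL and 8.08, 8.36 and 8.62 on HFD. Fasted p110αhep-/- mice gave 8.48, 8.64 and 8.86 on CTRL and 8.33, 8.50 and 8.82 on HFD. Here the diets overlapped in both states, and on CTRL every fasted mouse stood above every fed one.

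HFD raised Ucp2 by 0.98 in fed p110αhep+/+ mice (SE 0.09, 1.97-fold, limma adjusted p = 3.16e-10) and by 0.65 in fasted ones (SE 0.09, 1.57-fold, adjusted p = 5.06e-06). With p110α deleted the differences were 0.04 fed (95% interval -0.17 to 0.25, adjusted p = 0.87) and -0.17 fasted (-0.37 to 0.03, adjusted p = 0.324). The diet effect differed between genotypes by -0.94 fed (SE 0.14, adjusted p = 6.33e-05) and by -0.82 fasted (adjusted p = 0.00043). Within the batches this difference was -0.79 and -1.04 fed, neither called (adjusted p = 0.059 and 0.0686). In fasted mice it was -0.74, not called, and -0.84, called (adjusted p = 0.141 and 0.0366). Fed on HFD, Ucp2 was lower in p110αhep-/- mice by 2.08-fold (-1.06, SE 0.10, adjusted p = 1.97e-11), with no overlap and with -0.98 and -1.1 within the batches. Fasted on HFD it was also lower, with overlap (-0.42, adjusted p = 0.000898). Fasted on CTRL the sign was the other way, 0.39 higher in p110αhep-/- mice (adjusted p = 0.00163) with no overlap, and fed on CTRL the difference was -0.12 (adjusted p = 0.421).

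Fasting also moved Ucp2 in opposite directions. It fell by 0.39 in p110αhep+/+ mice on HFD (SE 0.09, limma adjusted p = 0.00099) and rose by 0.45 in p110αhep-/- mice on CTRL (SE 0.10, adjusted p = 0.000268). In p110αhep+/+ mice on CTRL and p110αhep-/- mice on HFD the differences were -0.06 and 0.24, neither called. The genotype by fasting term was 0.51 on CTRL (adjusted p = 0.0239) and 0.63 on HFD (adjusted p = 0.00579). The first of these was lost without replicate 3 of fasted p110αhep+/+ mice, of fed p110αhep-/- mice or of fasted p110αhep-/- mice on CTRL (0.46 to 0.48, adjusted p = 0.055 to 0.0608). The second Ucp2 probe (chr7:107645281-107645340) gave 0.81 and 0.55 for HFD in fed and fasted p110αhep+/+ mice and -0.98 for the genotype fed on HFD, all called. It differed from the brighter probe at 2 calls: its fasting effect in p110αhep+/+ mice on CTRL was called (-0.29, adjusted p = 0.0319), and the genotype difference fasted on HFD was not (-0.27, adjusted p = 0.0581). On this second probe the groups overlapped for fasting in p110αhep-/- mice on CTRL and for the genotype fasted on CTRL.

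Ucp3 read nearly the same. In p110αhep+/+ mice its lowest, median and highest values were 7.97, 8.05 and 8.17 fed on CTRL and 8.45, 9.03 and 9.23 fed on HFD, and 7.45, 7.98 and 8.03 fasted on CTRL and 8.24, 8.54 and 8.83 fasted on HFD. In p110αhep-/- mice they were 7.59, 7.83 and 8.13 fed on CTRL and 7.65, 7.98 and 8.23 fed on HFD, and 8.09, 8.25 and 8.44 fasted on CTRL and 7.78, 8.13 and 8.42 fasted on HFD. The diets were apart in p110αhep+/+ mice in both states and overlapped in p110αhep-/- mice in both. HFD raised Ucp3 by 0.94 fed (SE 0.11, 1.91-fold, limma adjusted p = 2.61e-08) and by 0.72 fasted (1.65-fold, adjusted p = 1.12e-05) in p110αhep+/+ mice. The p110αhep-/- mice gave differences of 0.11 (95% interval -0.13 to 0.35, adjusted p = 0.644) and -0.19 (-0.43 to 0.04, adjusted p = 0.334). The genotype by diet terms were -0.82 fed (adjusted p = 0.00235) and -0.92 fasted (adjusted p = 0.00066).

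Fed on HFD, Ucp3 was lower in p110αhep-/- mice (-1.07, SE 0.11, 2.11-fold, limma adjusted p = 6.96e-10) with no overlap, and -1.02 and -1.09 within the batches. It was lower fasted on HFD (-0.48, adjusted p = 0.00133) and 0.44 higher fasted on CTRL (adjusted p = 0.0027), the latter with no overlap. On fasting it fell by 0.42 in p110αhep+/+ mice on HFD (adjusted p = 0.00266) and rose by 0.48 in p110αhep-/- mice on CTRL (adjusted p = 0.000738), with overlap. The genotype by fasting terms were 0.69 on CTRL (adjusted p = 0.00879) and 0.60 on HFD (adjusted p = 0.0328), and the second was lost without any 1 of 10 mice (0.50 to 0.59). Within the batches the term on CTRL was 1, called, and 0.36, not called (adjusted p = 0.0222 and 0.629).

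**Figure D3:**
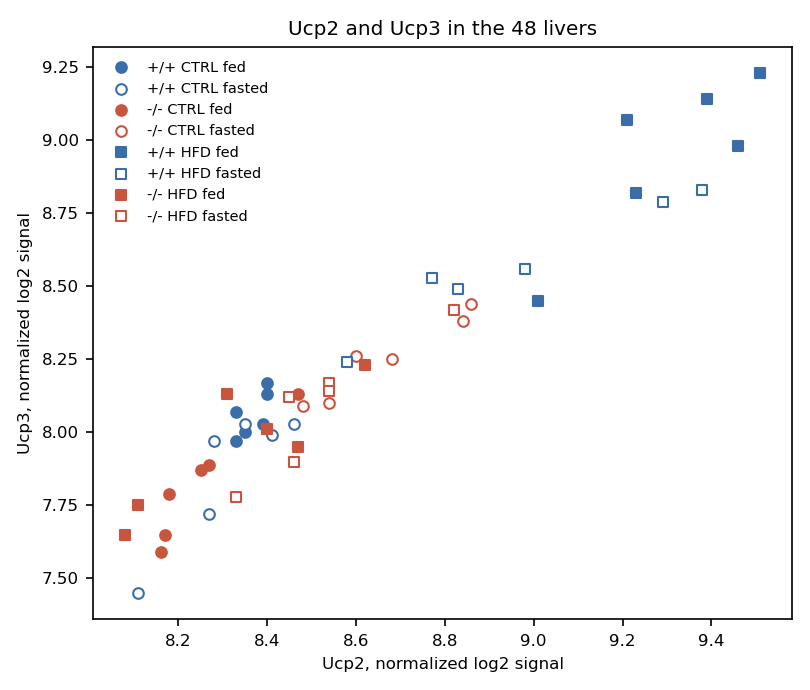
Normalised log2 signal of Ucp3 against that of Ucp2 on the 48 arrays, coloured by group. The points lie along 1 line (Pearson r = 0.97), with fed p110αhep+/+ mice on HFD at its upper end.

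The levels of Ucp2 and Ucp3 followed each other from mouse to mouse. Over the 48 arrays Pearson r was 0.97 and Spearman's rho 0.94, and r was 0.90 over the 36 arrays outside the p110αhep+/+ HFD groups. Within the 8 groups of 6 mice, r ran from 0.71 to 0.97 with a median of 0.91. Of 20459 genes, each was the one most correlated with the other. These are descriptions over arrays that share RNA, slide and normalisation, and the 2 probes of Ucp2 correlated at 0.92. Both genes had the same order of group means, from fed and then fasted p110αhep+/+ mice on HFD at the top, over fasted p110αhep-/- mice on CTRL, to fed p110αhep-/- mice on CTRL at the bottom, and each neighbouring pair overlapped.

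The 2 genes are neighbours, with no other RefSeq gene starting between them in the GRCm38.p6 order. The 250 bases before each start site are shown because the genes moved together (RefSeq, GRCm38.p6, plus strand, chr7:100493108-100493357 for Ucp2 and chr7:100472741-100472990 for Ucp3). Capitals mark matches to the motifs listed for Pdk4.
Ucp2: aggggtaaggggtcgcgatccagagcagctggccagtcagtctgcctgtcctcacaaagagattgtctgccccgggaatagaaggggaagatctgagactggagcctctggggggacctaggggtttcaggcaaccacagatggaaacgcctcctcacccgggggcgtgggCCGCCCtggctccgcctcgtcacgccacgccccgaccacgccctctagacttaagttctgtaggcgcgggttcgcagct
Ucp3: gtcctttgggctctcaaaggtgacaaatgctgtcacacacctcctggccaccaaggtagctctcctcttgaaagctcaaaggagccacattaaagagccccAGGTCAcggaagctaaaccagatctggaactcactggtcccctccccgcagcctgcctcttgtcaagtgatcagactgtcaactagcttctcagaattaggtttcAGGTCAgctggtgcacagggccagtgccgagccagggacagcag
The Ucp3 window holds AGGTCA at 149 and 44 bases before the start site, and the Ucp2 window holds GGGCGG on its minus strand at 79 bases. No motif of the 4 was in both. Of the other members, 1 of the 2 Pdk1 windows and the Pdk3 window hold 1 GGGCGG each, and 1 of the 2 Pdk2 windows holds 1 CACGTG.

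In whole liver, fewer cells of a type and less RNA per cell cannot be told apart, and Ucp2 is made by cells other than hepatocytes. None of 10 Kupffer cell and macrophage markers was called for HFD in fed p110αhep+/+ mice or for the genotype fed on HFD, where 24.1% and 32.9% of all genes were called. Their summed log2 level lay at 15.07 to 15.77 in fed p110αhep+/+ mice on HFD, 15.37 to 16.29 in fed p110αhep-/- mice on HFD and 15.11 to 16.52 in fed p110αhep+/+ mice on CTRL. In fasted mice 1 of 10 was higher for HFD in p110αhep+/+ mice (median 0.18) and 1 for the genotype on CTRL (median 0.29). For the genotype fasted on HFD 1 was higher and 1 lower (median 0.13). The genotype by diet term of fasted mice was called lower for 1 (median -0.22). In these 4 settings 15.9%, 24.8%, 36.8% and 4.96% of all genes were called. HFD in fed p110αhep+/+ mice raised 2 of 6 neutrophil markers (median 0.37) and 3 of 6 stellate cell markers (median 0.24), and in fasted ones 2 of 6 stellate cell markers (median 0.27). In p110αhep-/- mice the neutrophil median for HFD was 0.51 fed, with no marker called, and that of the genotype fed on HFD was -0.02. Nor did limma call a stellate cell marker for HFD in p110αhep-/- mice (medians 0.10 fed and 0.19 fasted, with 12.2% and 10.8% of all genes called), and their summed level on HFD was 14.61 to 15.41 in p110αhep+/+ and 14.73 to 15.15 in p110αhep-/- mice over both states. Neutrophil markers moved with HFD in fasted p110αhep+/+ mice, where 5 of 6 were higher (summed level 10.62 to 11.93, against 9.68 to 10.47 on CTRL; 15.9% of all genes called). In the genotype difference fasted on HFD, where Ucp2 and Ucp3 were lower, 5 of 6 neutrophil markers were lower (median -0.94) and 5 of 6 endothelial markers higher (median 0.37), with 36.8% of all genes called. Fasting in p110αhep+/+ mice on HFD, where Ucp2 and Ucp3 fell, lowered 3 of 6 endothelial markers and raised 0 (median -0.21, with 28.4% of all genes called). The genotype by diet term of fasted mice was called for 3 neutrophil markers, all lower (4.96% of all genes). Bile duct markers were lower in p110αhep-/- mice for 3 of 5 fed on CTRL and 4 of 5 in each of the other 3 genotype settings, fasted on CTRL included, where Ucp2 and Ucp3 were higher (21.5%, 24.8%, 32.9% and 36.8% of all genes called). Fed on HFD their summed level was 9.81 to 10.14 in p110αhep-/- against 11.31 to 12.40 in p110αhep+/+ mice. Of 5 adipocyte markers, 2 were higher (Lep and Adrb3) and 1 lower (Cfd) in p110αhep-/- mice fed on HFD (median 0.06, with 32.9% of all genes called). The adipocyte sum of p110αhep+/+ mice was 9.81 to 13.44 fed on CTRL and 13.19 to 13.65 fed on HFD. Fasted it was 10.62 to 12.47 on CTRL and 12.60 to 15.20 on HFD, with no overlap, and with 1 of 5 higher for HFD in each state and 1 lower in fasted mice (medians 0.01 and -0.02). Cfd carried most of the sum, at 13.07 to 13.58 in fed p110αhep+/+ and 6.65 to 10.90 in fed p110αhep-/- mice on HFD, while Plin1 lay at 5.29 to 5.96 in these groups and was well above background on 3 and 1 of 6 arrays. The part of these cells in the Ucp2 and Ucp3 results was not tested. Of 8 striated muscle markers 4 were measured and Ckm, Acta1, Mb and Myh7 were not, and the summed level of the 4 in fed mice on HFD was 7.85 to 8.47 in p110αhep+/+ and 7.82 to 8.28 in p110αhep-/- mice. It was 8.07 to 10.21 in fed p110αhep-/- mice on CTRL. For HFD in fed p110αhep-/- mice limma called 3 of the 4 lower (median -0.59, with 12.2% of all genes called). For fasting in p110αhep-/- mice on CTRL it called 2 of 4 lower (median -0.38, with 35.4% of all genes called). Their part in the Ucp3 results was not tested.

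**Figure D4:**
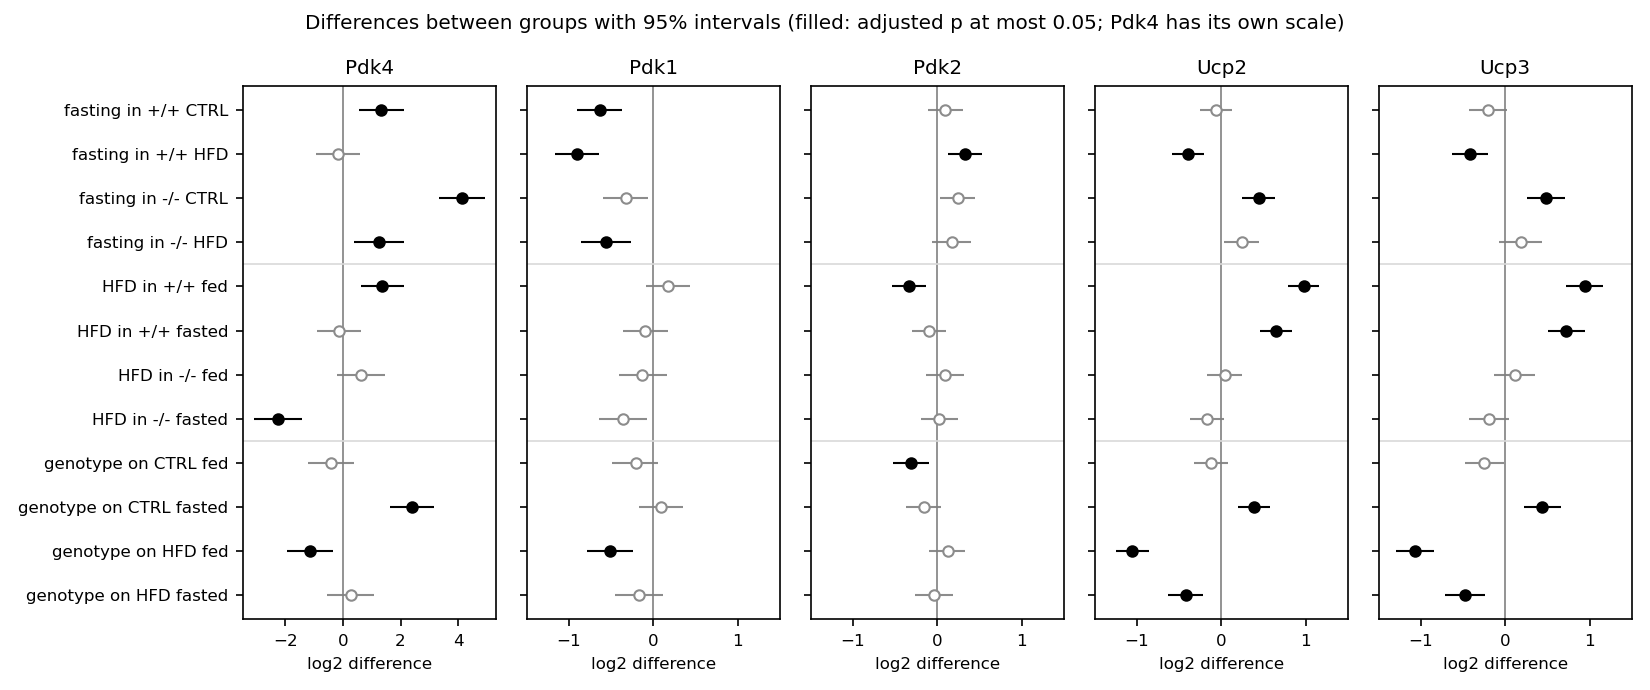
Log2 differences with 95% intervals of Pdk1, Pdk2, Pdk4, Ucp2 and Ucp3 in the 12 comparisons of 1 factor at a time; filled points passed an adjusted p of 0.05. The largest is the fasting rise of Pdk4 in p110αhep-/- mice on CTRL (4.13), and HFD in fed p110αhep-/- mice has no filled point.

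Counted over the 5 genes measured, fasting changed 2 in p110αhep+/+ mice on CTRL (Pdk4 up, Pdk1 down), where 32.5% of all 20486 genes tested were called. On HFD it changed 4 in these mice (Pdk2 up, Pdk1, Ucp2 and Ucp3 down), against 28.4% of all genes. Among p110αhep-/- mice it changed 3 on CTRL (Pdk4, Ucp2 and Ucp3, all up), against 35.4%, and 2 on HFD (Pdk4 up, Pdk1 down), against 28.5%. The shares called on CTRL in p110αhep+/+ mice and on HFD in p110αhep-/- mice were thus near those of all genes. Groups did not overlap for 1 member in p110αhep+/+ mice on HFD and for 2 in p110αhep-/- mice on CTRL, where 10.9% and 15.6% of all genes did not overlap.

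For HFD, 4 of 5 were called in fed p110αhep+/+ mice (Pdk4, Ucp2 and Ucp3 up, Pdk2 down), against 24.1% of all genes, and 2 of 5 in fasted ones (Ucp2 and Ucp3 up), against 15.9%. Among p110αhep-/- mice limma called 0 of 5 fed, and 0 at an unadjusted p of 0.05 too, against 12.2%, and 1 of 5 fasted (Pdk4 down), against 10.8%. Ucp2 and Ucp3 were the 2 members with no overlap between diets, in fed and in fasted p110αhep+/+ mice, where 9.51% and 5.87% of all genes had none.

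Between genotypes, 1 of 5 was called fed on CTRL (Pdk2 lower in p110αhep-/- mice), against 21.5% of all genes, and 3 of 5 fasted on CTRL (Pdk4, Ucp2 and Ucp3 higher), against 24.8%. Fed on HFD 4 of 5 were called (Pdk1, Pdk4, Ucp2 and Ucp3, all lower), against 32.9%, and fasted on HFD 2 of 5 (Ucp2 and Ucp3, both lower), against 36.8%. The 3 members called fasted on CTRL and the 4 called fed on HFD all had groups with no overlap, against 10.3% and 13% of all genes. The sign of the genotype difference of Pdk4, Ucp2 and Ucp3 was thus opposite in these 2 settings, which share no mice.

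The interaction terms were called in few genes overall. The genotype by fasting term was called for 3 of 5 members on CTRL (Pdk4, Ucp2 and Ucp3), against 3.92% of all genes, and for 2 on HFD (Ucp2 and Ucp3), against 3.37%. The genotype by diet term was called for 2 fed (Ucp2 and Ucp3), against 2.83%, and for 3 fasted (Pdk4, Ucp2 and Ucp3), against 4.96%. The diet by fasting term was called by limma for 0 of 5 in p110αhep+/+ mice, where Pdk4 and Ucp2 passed an unadjusted p of 0.05, against 2.36%, and for Pdk4 in p110αhep-/- mice, against 7.90%. Ucp2 and Ucp3 are neighbours whose signals rise and fall together, so their calls are not separate counts.

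The complex that the kinases act on changed in parts. Of 8 genes of the pyruvate dehydrogenase complex and its phosphatases, fasting raised 2 and lowered 2 in p110αhep+/+ mice on CTRL and again on HFD, raised 4 and lowered 1 in p110αhep-/- mice on CTRL, and raised 2 and lowered 1 on HFD. The medians were -0.02, -0.09, 0.08 and -0.02, beside 0 for all genes in each, of which 32.5%, 28.4%, 35.4% and 28.5% were called. Pdhb, a subunit of the pyruvate dehydrogenase component, was lower after the fast in all 4 settings (-0.79, -1.1, -0.40 and -0.49). Dlat, the acetyltransferase core, was lower in p110αhep+/+ mice (-0.55 and -0.70) and gave -0.06 and -0.07, not called, in p110αhep-/- mice. Pdp2, a phosphatase that opposes the kinases, rose by 1.06, 0.89, 0.51 and 0.77. Fed on HFD, Pdhb and Dlat were lower (-0.79 each) and Pdp2 0.88 higher in p110αhep-/- mice, with 1 higher and 4 lower of the 8 (32.9% of all genes called).

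Of 8 genes for the transport and other fates of pyruvate, fasting raised 4, 1, 4 and 0 and lowered 2, 3, 2 and 2 in the same order of settings (medians 0.16, -0.11, 0.24 and 0.05, with the same shares of all genes). Pklr, the liver pyruvate kinase that makes pyruvate, was lower after the fast in all 4 (-2.15, -1.58, -1.84 and -1.69). Pck1, which starts gluconeogenesis from oxaloacetate, rose by 2.18, 0.95 and 0.76 and gave 0.47 (not called) in p110αhep-/- mice on HFD. Pcx, which carboxylates pyruvate, rose by 0.23 and 0.28 on CTRL and gave -0.02 and 0.15 on HFD, neither called. Of 5 relatives of the kinases and of their target, fasting raised 2 in every setting and lowered 1 in both p110αhep+/+ settings (medians 0.11, 0.16, 0.02 and -0.04). In these settings 32.5%, 28.4%, 35.4% and 28.5% of all genes were called. The branched-chain kinase Bckdk was not called for fasting in any setting (-0.03, 0.16, -0.04 and -0.04). Of 8 mitochondrial carriers related to the uncoupling proteins, HFD raised 4 in fed p110αhep+/+ mice and 2 in fed p110αhep-/- mice (24.1% and 12.2% of all genes called), and Ucp1 was not measured. In fasted mice HFD raised 2 and lowered 0 in p110αhep+/+ mice and raised 0 and lowered 3 in p110αhep-/- mice (15.9% and 10.8% of all genes called). Slc25a20, the carnitine carrier, rose on fasting by 0.61, 0.23 and 1.07 and gave -0.01 in p110αhep-/- mice on HFD.

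Genes known as targets of PPARα in the fasted liver rose with Pdk4 on CTRL. Of 14, fasting raised 12 in p110αhep+/+ and 14 in p110αhep-/- mice on CTRL (medians 1.01 and 1.34, beside 0 for all genes, of which 32.5% and 35.4% were called). On HFD it raised 6 and lowered 2 in p110αhep+/+ mice and raised 7 and lowered 1 in p110αhep-/- mice (medians 0.22 and 0.44, with 28.4% and 28.5% of all genes called). Cyp4a14, a fatty acid hydroxylase, rose by 3.70 and 3.84 on CTRL, and Ehhadh, of peroxisomal β-oxidation, by 1.30 and 2.63. Vnn1, a pantetheinase, rose by 1.35 and 3.10, and Fgf21, the fasting hormone, by 1.91 and 3.43. The genotype by fasting term on CTRL was called for 6 of the 14, all larger in p110αhep-/- mice (3.92% of all genes called), among them Fgf21 (1.52), Vnn1 (1.74) and Ehhadh (1.32). Fed on CTRL, 8 of the 14 were lower and 1 higher in p110αhep-/- mice (median -0.35, with 21.5% of all genes called). After the fast 3 were higher and none lower (median 0.12, with 24.8%). The diet by fasting term was called lower for 9 of 14 in p110αhep+/+ and 13 of 14 in p110αhep-/- mice (medians -0.84 and -1.59, with 2.36% and 7.90% of all genes called).

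**Figure D5:**
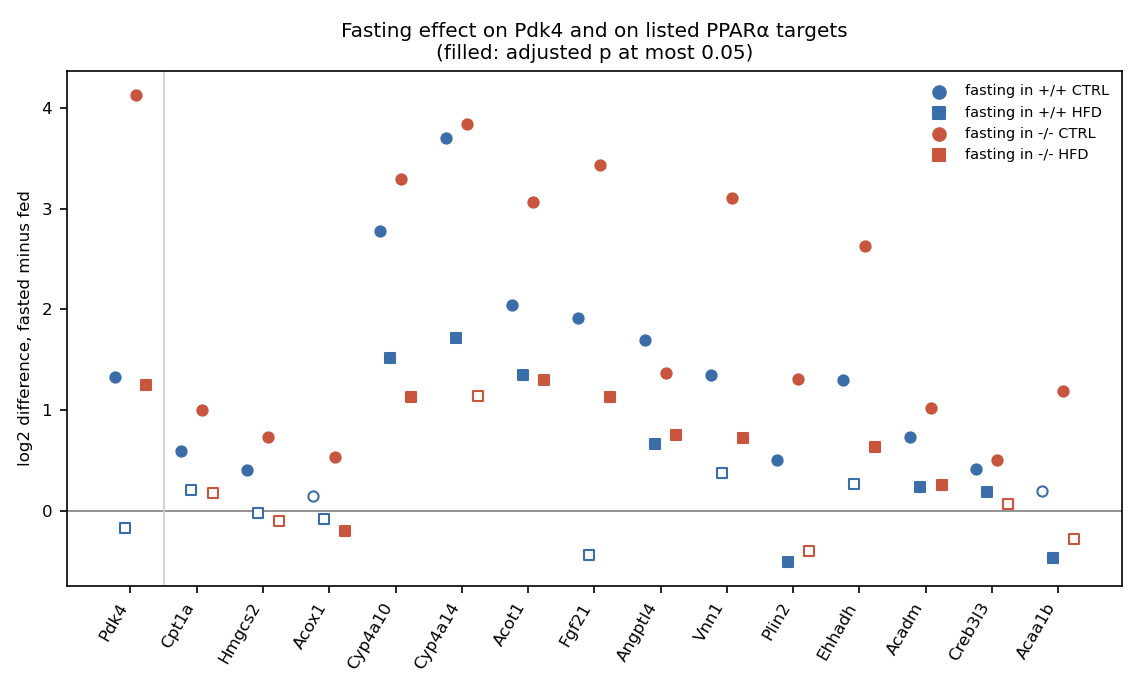
Fasting effect (log2 fasted over fed) on Pdk4 and on 14 PPARα targets in the 4 settings of genotype and diet. Pdk4 rises by 4.13 in p110αhep-/- mice on CTRL, where the median of the 14 targets is 1.34.

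Of 8 genes known as FOXO1 targets in liver, fasting raised 4 and lowered 2 in p110αhep+/+ mice on CTRL and raised 5 and lowered 2 in p110αhep-/- mice on CTRL (medians 0.30 and 0.54), where 32.5% and 35.4% of all genes were called. On HFD it raised 3 and lowered 3 in p110αhep+/+ mice and raised 2 and lowered 3 in p110αhep-/- mice (medians 0.13 and 0.27, with 28.4% and 28.5% of all genes). The genotype by fasting term on CTRL was called higher for 1 and lower for 2 of the 8 (median -0.59, with 3.92% of all genes), beside 2.80 for Pdk4. Igfbp1, an insulin-repressed secreted protein, rose on fasting by 3.39 and 2.02 on CTRL. It was 3.27 higher in fed p110αhep-/- mice on CTRL, where 4 of the 8 were higher and none lower (21.5% of all genes called). Irs2, the insulin receptor substrate, was 1.92 higher there and 0.87 higher after the fast. Among 14 factors known to act on the members, Ppara rose on fasting by 0.66, 0.31, 0.78 and 0.39 and Foxo1 by 0.84, 0.71, 0.67 and 0.99. For neither was a genotype difference called after a fast on CTRL (-0.01 and 0.19). Pparg, a factor of fat storage, was higher on HFD by 0.73 and 0.82 in p110αhep+/+ and by 1.33 and 1.15 in p110αhep-/- mice. It was lower in p110αhep-/- mice in all 4 settings (-2.14 and -1.80 on CTRL, -1.55 and -1.47 on HFD).

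The genes whose levels were most like those of a member over the 48 arrays, by Pearson r among 20459 genes, were these. For Pdk4 they were Hilpda (0.90), a lipid droplet protein, Acot5 (0.85), Arl4a (0.85) and Cpt1b (0.85). For Pdk1 they included Ndufa8 (0.88), Slc2a2 (0.85), the liver glucose transporter, and a transcript with no gene name (0.84). For Pdk2 they were Ascc1 (0.78), Plcg1 (0.78), Btbd2 (0.77) and Smim19 (0.74). After each other, Ucp2 and Ucp3 were closest to Sdcbp2 (0.84 with both), with Cbr3 and Tnfrsf23 next (0.79 to 0.81). With group means removed, r was 0.69 for Pdk4 with Hilpda, 0.72 for Pdk1 with Slc2a2 and 0.86 for Ucp2 with Ucp3. Between the kinases and the uncoupling proteins the largest r was 0.36, for Pdk4 with Ucp2, and 0.12 with group means removed.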

How the data were processed

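Liver RNA of 48 mice (200 ng each) was hybridised by the authors to 1-colour Agilent SurePrint G3 mouse arrays, 6 slides with 1 array of each of the 8 groups per slide, washed in 2 batches of 24 arrays. The deposited scanner files hold each spot's intensity as read by Agilent Feature Extraction 10.10.1.1 (version from the submitters' processing notes), with probe positions on mm9. The deposited table of the authors' normalised values is in log2 units and was used as an alternative.

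The study's methods name a filter, log2 median signals, a washing batch correction, quantile normalisation and limma with array weights, and these steps were repeated from the intensities. The rules inside them were set here: outlier spots were left out, spots of a probe were averaged, and probes well above background on at least 5 of 6 arrays of a group were kept (30793 of 56605). The washing batch was removed with removeBatchEffect and arrays were quantile normalised. In R 4.3.3 with limma 3.58.1, 1 mean per group was fitted with array weights (statmod 1.5.0) and moderated variances, for 12 differences of 1 factor and 6 interactions. Benjamini-Hochberg adjustment ran across every probe that passed the filter. A gene is read by its brightest probe, and intervals are 95%. Each array is 1 mouse, so p-values measure the spread between mice, and precision is limited by the number of arrays. The fit was tested on simulated data: for fasting in p110αhep-/- mice on CTRL, with 200 of 30793 probes raised 2-fold, it recovered 192 and called 12 others.

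The genes named are the 6 members, the genes of the pathway, target and marker lists, Pik3ca and the 4 genes most correlated with each member, of which 1 is not reported here. The members and the lists were chosen with earlier results of these data known. No list was tested. Correlations use the 20459 genes with a value on every array. Promoters are from RefSeq (GRCm38.p6), in which 6 of 6 members were found. No protein sequence was used here, and no genome sequence or annotation beyond the RefSeq promoter windows and gene order. The alternatives were the background correction, scaling, filter, batch, slide and replicate terms, array weights, probe rule, thresholds and leaving out each array.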

Additional observations from a re-analysis of the deposited data

Results flagged for a closer look

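In 3 of the 40 sets of 6 mice (5 genes by 8 groups) 1 mouse stood apart from the other 5 by Dixon's criterion, which chance meets in about 1 of 20. Pdk1 was 11.15 in fed p110αhep-/- HFD replicate 3, against 12.14 to 12.46 in the others, and this array also had the lowest weight in the fit (0.354). Pdk4 was 10.03 in fasted p110αhep+/+ HFD replicate 2, against 9.69 to 9.81. Ucp2 was 8.47 in fed p110αhep-/- CTRL replicate 5, against 8.16 to 8.27.

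The other results listed here are effects that differed between groups by an interaction term of limma with an adjusted p of at most 0.05. For Pdk4 the fasting effect on CTRL was 2.80 larger in p110αhep-/- than in p110αhep+/+ mice, the HFD effect in fasted mice differed by -2.12 between the genotypes, and the fasting effect in p110αhep-/- mice differed by -2.88 between the diets. For Ucp2 the fasting effect differed between genotypes by 0.51 on CTRL and 0.63 on HFD, and the HFD effect by -0.94 fed and -0.82 fasted. For Ucp3 the same terms were 0.69 and 0.60, and -0.82 and -0.92. The causes were not tested.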

How the results depend on the processing

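Over the 5 genes measured, limma called 11 of 20 fasting differences, 7 of 20 HFD differences, 10 of 20 genotype differences, 5 of 10 genotype by fasting terms, 5 of 10 genotype by diet terms and 1 of 10 diet by fasting terms. Over all genes the shares called were 31.2%, 15.8%, 29%, 3.64%, 3.9% and 5.13% in the same order. Ucp2 and Ucp3 both enter the member counts, though they are not separate counts. Without 1 array the member counts ran from 10 to 12, 7 to 8, 9 to 10, 4 to 5, 4 to 6 and 1 to 1. The genotype by fasting count was 3 without the filter on dim probes, 3 without array weights and 3 at an adjusted p of at most 0.01. The call of Ucp3 for genotype by fasting on HFD was lost in 7 of 18 alternatives. Those of Ucp2 for genotype by fasting on CTRL, Pdk4 for genotype by diet fasted and Pdk2 for the genotype fed on CTRL were lost in 6 each. A fold change over 1.5 left 5 fasting and 4 genotype calls. Within washing batch 1, with 3 mice per group, limma called 5 genotype differences, 1 genotype by fasting term and 0 genotype by diet terms. Within washing batch 2 it called 4 fasting differences, 5 genotype differences, 0 genotype by fasting, 1 genotype by diet and 0 diet by fasting terms. The smaller number of mice is part of how these last fits are made. A median over the probes of a gene reversed Pdk1 for fasting in p110αhep-/- mice on HFD (0.05) and for the genotype fed on HFD (0.04). With this median the Pdk1 fasting calls of p110αhep+/+ mice were lost too, at 0 on CTRL and -0.08 on HFD (limma adjusted p = 0.977 and 0.504). The fasting count was then 8. By construction this median is the level of the probe nearest the 5′ end on 43 of 48 arrays. Of the 1620 values of single members under 18 alternatives, 1532 kept their side of the threshold, the called ones with the same sign. A call was lost in 76 values and gained in 10, and 2 called differences changed sign. The sign of differences that stayed uncalled was not compared, and some of them changed it. Mice with the same replicate number did not deviate together (mean r 0.018, from -0.351 to 0.336, 39 of 168 pairs over 0.1), so the numbers do not pair them. With the replicate block the fasting count was 12 and no other count changed. The authors' deposited log2 table gave the same 6 counts. Differences of dim genes such as Pdk3 were not detectable at this signal over background.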
